A study of Mus musculus with 16 samples.

Results

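Npas4 (RefSeq gene 225872) lies on the minus strand of mouse chromosome 19, at chr19:4984353-5003439 in the mm10 (GRCm38) gene table. The H3K4me3 regions described here are those inside Npas4, within 2 kb of either end of it, or up to 10 kb from either end. By this rule 2 of the 35996 regions of the shared region set belong to Npas4, and both lie inside the table's span of the gene and passed the filter on low counts. The gene was selected on its H3K4me3 difference between Kdm5c KO and WT mice in an earlier reading of these data. Values for KO against WT are therefore given as a description without a test. The ifKO line was not used in that choice and was tested. The response to novelty was tested as well, but in the same KO and WT libraries that the choice used. Its values and those of the interaction are therefore not independent of the choice.

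H3K4me3 was measured by chromatin immunoprecipitation and sequencing (ChIP-seq) in hippocampi of adult male mice aged 2 to 4 months. There were 6 groups with 2 libraries each, and each library came from a pool of 2 mice. Kdm5c KO and wild-type (WT) mice of a mixed F1 C57/129 background were sampled after novelty, which was 1 h alone in a box with tubing and toys, or under standard conditions. The line labelled Kdm5c ifKO and its controls, written ifWT here, were on a pure C57BL/6J background and sampled in the basal state. All controls were littermates of the mutants. The sources used here do not say how the ifKO line was made or which of its cells lack Kdm5c. Kdm5C itself and H3K4me1, a mark common at enhancers, were profiled in 1 KO and 1 WT library each, on the C57BL/6J background.

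Npas4 encodes a neuronal transcription factor of the bHLH-PAS family. In neurons it is an immediate early gene, transcribed within minutes of calcium entry during synaptic activity and nearly silent otherwise. Its protein pairs with ARNT or ARNT2, binds promoters and enhancers of activity-dependent genes such as Bdnf, and is known in the hippocampus for its part in inhibitory synapse formation and contextual memory. H3K4me3 marks the starts of active and poised genes, and Kdm5c encodes an X-linked enzyme that removes methyl groups from this residue.

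The 300 bases around the annotated start of Npas4, from 250 bases before it to 50 after it, are shown because the stronger of the 2 regions ends within them. The sequence is RefSeq's for GRCm38.p6, chr19:4989922-4990221, minus strand, written 5′ to 3′. Capitals mark TGACG or its reverse complement CGTCA, which is an arm of the cyclic AMP response element, and TATAA, the core of a TATA box.

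Npas4 start: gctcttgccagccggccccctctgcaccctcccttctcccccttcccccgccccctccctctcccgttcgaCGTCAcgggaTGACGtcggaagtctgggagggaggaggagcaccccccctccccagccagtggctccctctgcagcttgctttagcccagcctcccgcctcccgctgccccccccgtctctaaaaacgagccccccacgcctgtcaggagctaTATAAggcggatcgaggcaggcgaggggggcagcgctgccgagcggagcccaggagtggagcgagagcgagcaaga

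The window is 69.3% G and C, against a median of 52.7% over 32851 RefSeq windows of the same length, and holds 21 CpG dinucleotides. TGACG occurs 2 times, 179 and 169 bases before the start, once on each strand. At least 1 copy on either strand is found in 20.8% of all windows and at least 2 copies in 5.01%. TATAA lies 26 bases before the start and occurs in 24.9% of windows, and 3.67% of windows hold both motifs. The full element TGACGTCA (1.79% of windows) and TCGTG, the core of the motif reported for NPAS4 itself (16.0% of windows), were not among these letters on either strand. GGGCGG, a GC box, occurs 1 time here and in 35.7% of windows. These matches describe the letters and say nothing on binding.

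The start region, chr19:4988152-4990006, covers the annotated start at position 4989971 and runs 1.82 kb into the gene. It averaged 43.5 CPM (reads scaled to library size), more than 73.9% of all regions. The upstream region, chr19:5001097-5002393, lies 11.1 to 12.4 kb upstream of the annotated start and averaged 6.01 CPM, more than 49.0% of all regions. It counts as inside Npas4 because the gene's span in the table reaches 13.5 kb beyond the annotated start. This span seems to take in predicted transcripts, which were not looked up here. Whether a transcript begins near the upstream region was not tested. The edge of the upstream region is 1046 bp from that outer end. The nearest regions outside the rule's window were 19.9 kb from the outer end (Slc29a2) and 21.2 kb beyond the other end (Mrpl11). Per kb, group means were 21.4 to 26.1 CPM at the start region and 3.3 to 6.16 CPM at the upstream region. Across the 12 libraries the log2 CPM values of the start region and the upstream region had a correlation of -0.20. It is given as a description of libraries that share genotypes and cohorts.

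Total counts over the regions ran from 18180983 to 30435275 per library, so that a floor of 3 counts was worth 0.0953 to 0.168 CPM. All 8 hippocampal neuron markers had a region, with a summed level of 338.8 to 390.5 CPM, and 0 of 4 markers of other organs had one. Kdm5c keeps a region at its gene end in every group (group means 56.5 to 60.5 CPM in mutants, against 59.8 to 69.4 CPM in controls), which does not report on a deletion within the gene. In this bulk tissue, a mark on more cells and more of it per cell cannot be told apart.

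In all 3 mutant groups the upstream region held 1.56 to 1.86 times the H3K4me3 of its controls, while the libraries overlapped at the start region. After novelty the upstream region had 7.31 and 8.67 CPM in KO libraries, against 4.05 and 4.49 CPM in WT libraries. KO averaged 7.99 ± 0.961 CPM, against 4.27 ± 0.308 CPM in WT (SD, n = 2 each). Both KO libraries lay above both WT libraries, and the fitted log2 difference was 0.89 ± 0.17 (SE), a fold of 1.86. Under standard conditions the level was 6.98 and 7.01 CPM in KO libraries, from 170 and 191 reads, against 4.27 and 4.69 CPM in WT libraries, from 95 and 105 reads. The KO libraries again lay above the WT libraries, with a log2 difference of 0.64 ± 0.18 and a fold of 1.56. Counting error alone gives 95% Poisson intervals of 6.29 to 7.76 CPM for the pooled KO reads and 3.88 to 5.15 CPM for the pooled WT reads. These intervals leave out the spread between pools of mice and are not a test of the difference. KO libraries lay wholly above WT libraries in 31% of all regions after novelty and in 30.2% under standard conditions, and since these contrasts chose the gene, nothing is read from either share. With scaling fitted to region strength, the log2 differences were 0.75 after novelty and 0.50 under standard conditions.

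The ifKO line, which shares no library with the KO cohort, was the test of the upstream region. The level was 8.43 and 6.74 CPM in ifKO libraries, from 164 and 120 reads, against 4.16 and 5.36 CPM in ifWT libraries, from 85 and 120 reads. The lower ifKO library lay above the higher ifWT library, which holds for 21.8% of all regions in this comparison. The log2 difference was 0.67 ± 0.18, a fold of 1.59, with an adjusted p of 0.0207 in edgeR's quasi-likelihood test over 35955 regions. Thus 1 of the 2 Npas4 regions rose in ifKO, where 4.41% of all regions rose and 5.38% were called in either direction. The call was lost without ifKO replicate 1 (log2 difference 0.50, edgeR adjusted p = 0.334), without ifWT replicate 1 (0.50, adjusted p = 0.278) and with scaling fitted to region strength (0.58, adjusted p = 0.0546). The title of ifWT replicate 1 names the mark H3K3me3, while its antibody label and protocol name H3K4me3, and the library was used as H3K4me3.

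At the start region the mutant and control libraries overlapped in all 3 comparisons. The level was 48.2 and 45.4 CPM in KO against 45.6 and 51.1 CPM in WT after novelty. It was 44.3 and 39.5 CPM in KO against 42.4 and 46.6 CPM in WT under standard conditions. The log2 differences, KO minus WT, were -0.05 ± 0.07 after novelty and -0.09 ± 0.08 under standard conditions. In the ifKO line the values were 40.5 and 39.0 CPM in ifKO and 42.0 and 37.8 CPM in ifWT, and the log2 difference was -0.00 ± 0.08 (edgeR adjusted p = 0.989). With 694 to 1517 reads per library the start region had a smaller SE than the upstream region, which had 85 to 230 reads.

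**Figure D1:**
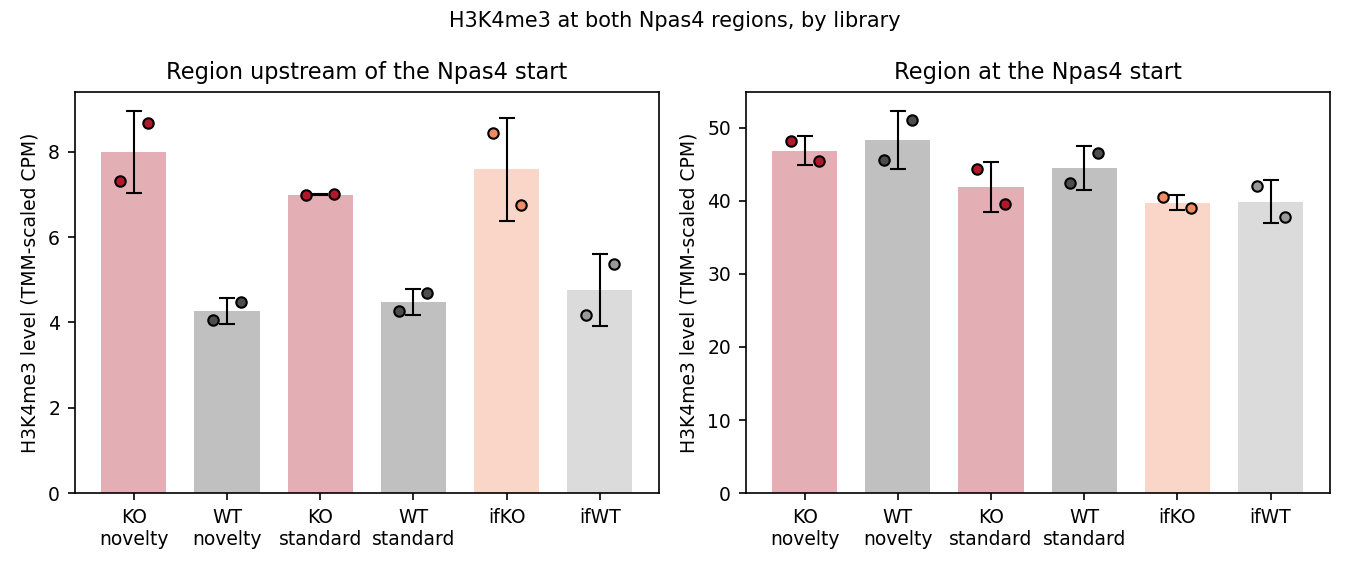
H3K4me3 level (CPM, linear axes from 0) of the upstream region and the start region of Npas4 in each library (points), with the group mean (bar) and the SD of the 2 libraries (line). At the upstream region every mutant library lies above every control library, from 6.74 CPM upwards against at most 5.36 CPM. How many regions of the whole set do the same was not counted. At the start region mutant and control libraries overlap.

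Dividing the reads of the upstream region by those of the start region within each library removes the library scaling. It does not remove scaling that depends on region strength. The upstream region held 15.2% and 19.1% as many reads as the start region in KO after novelty, against 8.90% and 8.78% in WT. The share was 15.8% and 17.8% in KO and 10.1% in both WT libraries under standard conditions, and 20.8% and 17.3% in ifKO against 9.92% and 14.2% in ifWT. All 6 mutant libraries lay above all 6 control libraries in this ratio. How often other regions separate the libraries in this way was not counted. The closest pair was 15.2% in a KO library after novelty and 14.2% in an ifWT library. The ratio reuses the same upstream reads, and its KO and WT libraries are those that chose the gene. It is therefore a description and adds no separate support.

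**Figure D2:**
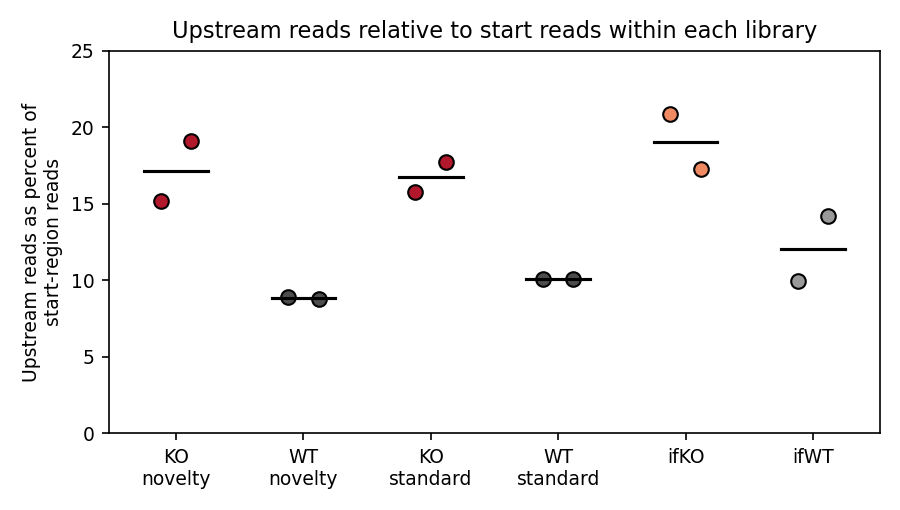
Reads of the upstream region as a percent of the start region's reads in the same library (points) with group means (bars), for the 6 groups. The mutant libraries run from 15.2% to 20.8% and the control libraries from 8.78% to 14.2%.

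Ordered by mean level, the upstream region ran from WT after novelty (4.27 CPM) through WT under standard conditions (4.48 CPM), ifWT (4.76 CPM), KO under standard conditions (7.00 CPM) and ifKO (7.59 CPM) to KO after novelty (7.99 CPM). Neighbours in this order overlapped at every step but one, the gap of 2.23 CPM between ifWT and KO under standard conditions. At the start region the order was ifKO (39.7 CPM), ifWT (39.9 CPM), KO under standard conditions (41.9 CPM), WT under standard conditions (44.5 CPM), KO after novelty (46.8 CPM) and WT after novelty (48.3 CPM), and every pair of neighbours overlapped.

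Novelty exposure left neither Npas4 region past the threshold. Start region levels in WT were 45.6 and 51.1 CPM after novelty and 42.4 and 46.6 CPM under standard conditions, a log2 difference of 0.12 ± 0.07 (edgeR adjusted p = 0.999). In KO they were 48.2 and 45.4 CPM after novelty and 44.3 and 39.5 CPM under standard conditions, a log2 difference of 0.16 ± 0.07 (adjusted p = 1, unadjusted p = 0.0343). The KO libraries after novelty lay above those under standard conditions, as they did in 15.7% of all regions. Averaged over genotypes, the start region differed by 0.14 ± 0.05 (edgeR unadjusted p = 0.0104, adjusted p = 0.64). For the upstream region the log2 difference was 0.19 ± 0.16 in KO (adjusted p = 1), -0.07 ± 0.19 in WT (adjusted p = 0.999) and 0.06 ± 0.12 averaged (adjusted p = 0.992). The KO libraries after novelty, at 7.31 and 8.67 CPM, lay above those under standard conditions, at 6.98 and 7.01 CPM, by less than the spread between the novelty libraries. Whether the novelty difference itself varied with genotype was tested as the interaction, KO minus WT. It was 0.25 ± 0.25 at the upstream region and 0.04 ± 0.11 at the start region, each with an edgeR adjusted p of 1.

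Few regions of the whole set responded to novelty in these tests. In edgeR, 2 regions (0.00556%) were called in WT and 0 (0%) in KO, while 1679 in WT (4.67%) and 1416 in KO (3.94%) had an unadjusted p under 0.05. With other settings the count was up to 47 in WT and up to 5 in KO. Averaged over genotypes 17 regions were called (0.0473%), of which 16 were higher (0.0445%) and 1 lower (0.00278%). For the interaction 0 were called (0%) and at most 1 in the alternatives run, with 1055 (2.93%) at an unadjusted p under 0.05.

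**Figure D3:**
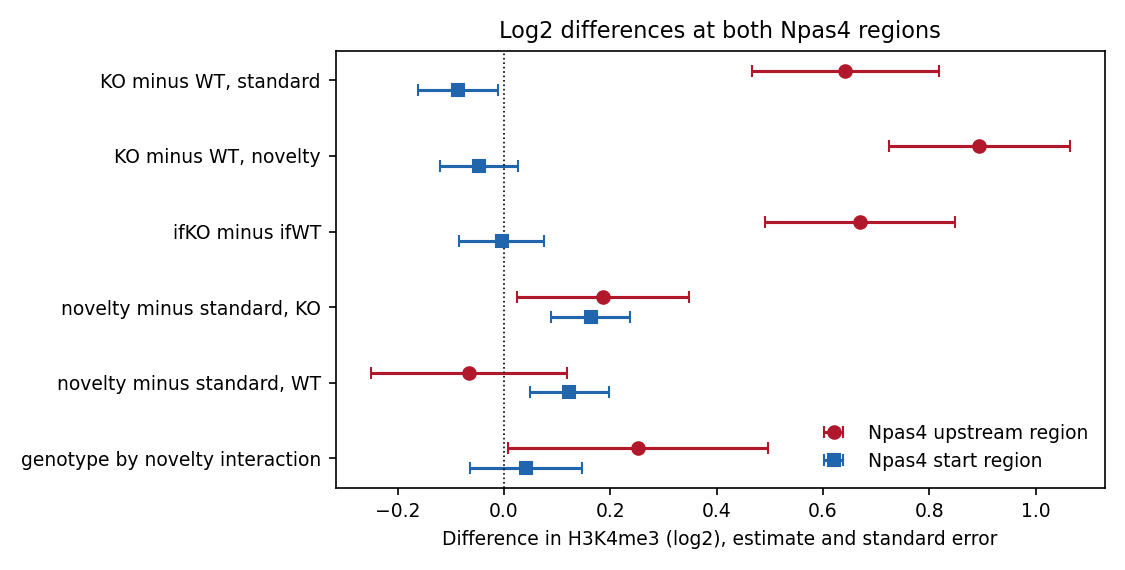
Log2 difference (point) and SE (line) of the upstream and start regions of Npas4 in each comparison, mutant minus control, novelty minus standard, or the interaction. The upstream region sits at 0.64 to 0.89 in the 3 mutant comparisons, and the start region between -0.09 and 0.16 in all the comparisons shown.

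The surroundings of Npas4 hold 9 further regions within 50 kb of its ends. Of these, 4 regions at Brms1 and Rin1, 44.4 to 47.1 kb beyond the outer end, rose in ifKO, 1 fell and 4 did not pass the test there. Among all regions 4.41% rose in ifKO and 0.976% fell. Brms1 encodes a subunit of a SIN3 histone deacetylase complex, and Rin1 encodes a RAS effector with a role in endocytosis, known in mouse forebrain as a limit on fear memory. The Brms1 region chr19:5049147-5049516 had 5.48 ± 0.684 CPM in ifKO, against 0.731 ± 0.213 CPM in ifWT (SD, n = 2 each), a log2 difference of 2.91 ± 0.27 (edgeR adjusted p = 2.44e-09). The Brms1 region chr19:5047863-5048330 had 6.58 ± 0.806 CPM in ifKO against 1.44 ± 0.524 CPM in ifWT, a difference of 2.2 ± 0.24 (adjusted p = 8.32e-08). A further Brms1 region, chr19:5048391-5048769, had 7.91 ± 1.18 CPM in ifKO and 2.40 ± 0.487 CPM in ifWT, a difference of 1.73 ± 0.20 (adjusted p = 1.9e-07). These weak regions thus changed by more than the upstream region of Npas4 did.

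At the Rin1 start (chr19:5050538-5053325) the level was 81.5 ± 7.5 CPM in ifKO and 61.5 ± 6.49 CPM in ifWT, and the log2 difference was 0.41 ± 0.07 (edgeR adjusted p = 0.000153). In the KO cohort the same 3 Brms1 regions differed by 2.57, 2.12 and 1.58 after novelty and by 2.53, 2.04 and 1.58 under standard conditions, and Rin1 by 0.34 and 0.31. The B4gat1 region chr19:5038406-5040116, shared with Gm30581, was called lower in KO under standard conditions (-0.18 ± 0.06). That call was lost without KO standard replicate 1, WT standard replicate 1 or WT standard replicate 2, with library totals and with scaling fitted to region strength. The Slc29a2 region, at a gene for a nucleoside transporter, was the neighbour that fell in ifKO, where 0.976% of all regions fell, by 0.20 on the log2 scale (edgeR adjusted p = 0.0468). That call was lost without ifKO replicate 1 (adjusted p = 0.435), without ifWT replicate 1 (0.32), and in 4 other settings (adjusted p from 0.0577 to 0.17). The regions of Mrpl11, Peli3 and B4gat1 had log2 differences from -0.12 to 0.12 in ifKO and did not pass the test (lowest edgeR adjusted p = 0.242). Of these, the B4gat1 region chr19:5040491-5042017 also overlaps Brms1 and did not rise in ifKO (-0.05 ± 0.06, edgeR adjusted p = 0.751). In KO that region differed by -0.10 after novelty and -0.09 under standard conditions.

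**Figure D4:**
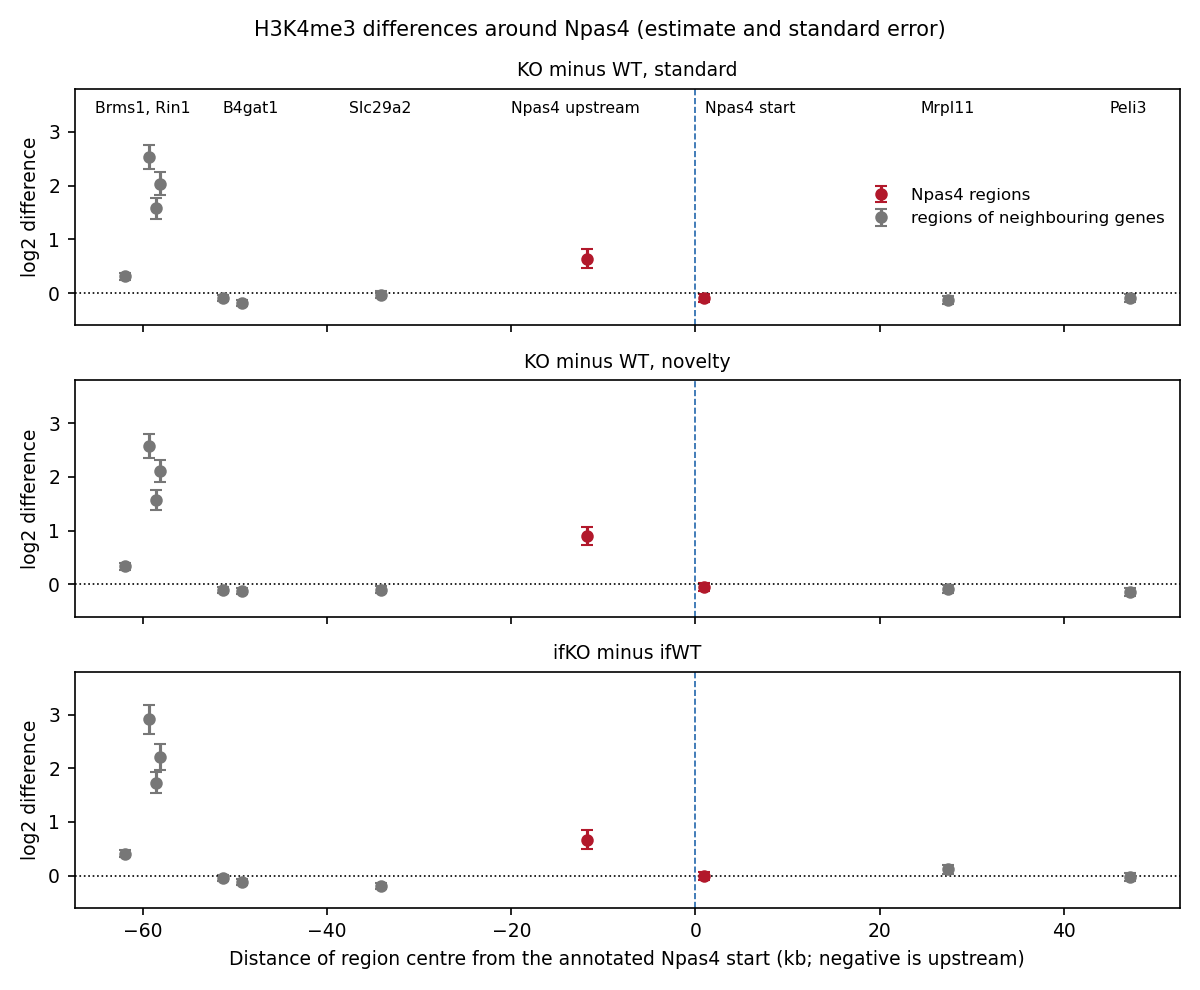
Log2 difference with SE of the 2 Npas4 regions and the 9 neighbouring regions, against the distance of each region's centre from the annotated Npas4 start (kb, negative is upstream), for the 3 mutant comparisons. The Brms1 regions that rose in ifKO stand highest at 1.58 to 2.91, the Npas4 upstream region at 0.64 to 0.89, and the Npas4 start region near 0.

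The files for Kdm5C and H3K4me1 hold values for 2321 regions, and 0 of them lie within 10 kb of Npas4. The nearest one, chr19:4854696-4854943, is 129.4 kb away. Since these files list a limited set of regions, nothing is read from this on occupancy of Kdm5C at Npas4.

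The relatives of Npas4 were looked at next. Of 16 bHLH-PAS genes, 15 had a region at a gene end, and each was represented by its strongest one, which for Npas4 is the upstream region. In ifKO 2 rose, Npas4 and Sim2, and 0 fell, where 4.41% of all regions rose, and the median log2 difference over the 15 was -0.03, against -0.01 over all regions. Sim2 encodes a transcription factor of the Single-minded group, known from development. Its region differed by 0.73 ± 0.11 in ifKO (edgeR adjusted p = 3.15e-05), and by 0.55 ± 0.11 after novelty and 0.76 ± 0.11 under standard conditions in KO. In the KO cohort, where 17% of all regions were called after novelty and 13.4% under standard conditions, 4 of the 14 relatives other than Npas4 were called after novelty (1 higher, 3 lower) and 2 under standard conditions (1 higher, 1 lower). Npas4 is left out of these counts because the same contrasts chose it. Over 11 other settings and left-out libraries the counts were 1 to 4 after novelty and 1 to 2 under standard conditions, and Sim2 was called in all of them. Among all regions 11.1% were higher and 5.94% lower after novelty, and 9.74% higher and 3.67% lower under standard conditions. The lower ones were Arnt in both conditions and, after novelty, Clock (-0.21 ± 0.06) and Epas1 (-0.20 ± 0.06). Clock encodes a core circadian factor, and Epas1 encodes a hypoxia factor. Clock lost its call with scaling fitted to region strength and without KO novelty replicate 1 or WT novelty replicate 2. Epas1 lost its call with that scaling, with library totals and without any one of the 4 novelty libraries. When each gene was represented by the region at its annotated start instead, 11 were measured and 0 rose in any comparison. Lower ones then numbered 4 after novelty and 2 under standard conditions in KO, and 0 in ifKO, and Hif1a (-0.16 ± 0.05 after novelty) and Arntl were among them. Hif1a lost its call with library totals and with scaling fitted to region strength. The same held without KO novelty replicate 1 or 2 or WT novelty replicate 2.

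Of the genes for NPAS4's partners, Arnt had 79.0 and 76.6 CPM in KO, against 86.6 and 86.8 CPM in WT after novelty, and 78.1 and 79.2 CPM in KO, against 87.4 and 89.8 CPM in WT under standard conditions. Its KO libraries lay below its WT libraries in both conditions, as in 28.2% of all regions after novelty and 27.8% under standard conditions. The log2 differences were -0.16 ± 0.05 after novelty and -0.17 ± 0.05 under standard conditions. Both calls for Arnt were lost with library totals, with scaling fitted to region strength, and without any one of the 4 libraries compared. In ifKO the difference was -0.07 (edgeR adjusted p = 0.546), with 72.9 and 76.2 CPM in ifKO and 78.3 and 78.2 CPM in ifWT. Arnt2, the partner gene most used in neurons, differed by 0.08 in KO in both conditions and by 0.11 in ifKO (edgeR adjusted p = 0.315). Arntl, whose product BMAL1 also pairs with NPAS4 in some settings, had a region only at its annotated start. It differed by -0.18 after novelty and -0.22 under standard conditions in KO, and by -0.15 in ifKO (edgeR adjusted p = 0.149). After novelty Arntl lost its KO call with library totals and with scaling fitted to region strength. The same held without KO novelty replicate 1 or 2 or WT novelty replicate 2. Under standard conditions Arntl lost its call with that scaling and without KO standard replicate 1 or WT standard replicate 1.

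Of 5 reported target genes of NPAS4, 0 passed the test in any comparison. With 17% of all regions called in KO after novelty, 13.4% in KO under standard conditions, 5.38% in ifKO and 0.0473% for novelty, so small a count does not set the targets apart, and over other settings it was at most 1 in the mutant comparisons. Bdnf, which encodes a neurotrophin, had 14.4 and 13.7 CPM in ifKO and 16.0 and 12.7 CPM in ifWT at its strongest gene-end region. Its log2 difference was -0.03 (edgeR adjusted p = 0.949). Nptx2, which encodes a secreted synaptic pentraxin, differed by -0.01 (adjusted p = 0.968), with 28.6 and 25.9 CPM in ifKO and 29.2 and 25.9 CPM in ifWT. Syt10, which encodes a synaptotagmin, differed by -0.09 (adjusted p = 0.627). Mdm2, which encodes a ubiquitin ligase, differed by -0.06 (adjusted p = 0.588), and Plk2, which encodes a polo-like kinase of synapses, by 0.04 (adjusted p = 0.741). Over the 5 genes the median was -0.09 after novelty and -0.12 under standard conditions in KO, against 0.01 over all regions.

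Among 18 genes that act upstream of activity-dependent transcription, 14 had a gene-end region. In ifKO 1 rose, Camk2a, which encodes a calcium-dependent kinase of excitatory neurons, by 1.02 ± 0.06 on the log2 scale (edgeR adjusted p = 3.17e-13), where 4.41% of all regions rose. With regions at annotated starts 0 of 13 rose. The Camk2a difference in KO was 0.13 after novelty and 0.03 under standard conditions, and whether the lines differ was not tested. The sources used here do not say how the ifKO line was made, and the origin of the Camk2a rise was not tested. In KO the region of Srf, which encodes the serum response factor, was lower after novelty (-0.24 ± 0.06) and under standard conditions (-0.19 ± 0.06). That of Crtc1, a coactivator of CREB, was lower under standard conditions (-0.21 ± 0.06). So 1 of 14 was called after novelty and 2 of 14 under standard conditions, all lower, where 5.94% and 3.67% of all regions were lower. With scaling fitted to region strength Srf lost its call under standard conditions. The count was 0 under standard conditions with library totals and without KO standard replicate 1 or WT standard replicate 1 or 2, and Crtc1 alone lost its call without KO standard replicate 2. After novelty the count was 0 without KO novelty replicate 1 or WT novelty replicate 2, 1 higher and 1 lower with library totals, and 2 higher and 1 lower with scaling fitted to region strength.

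Of 33 rapid activity-induced genes, Npas4 included, all had a gene-end region. After novelty, averaged over genotypes, 1 rose. This was Fosb, which encodes a partner of JUN in AP-1, by 0.22 ± 0.04 on the log2 scale (edgeR adjusted p = 0.0187), in a comparison where 0.0473% of all regions were called. With regions at annotated starts, 2 of 23 rose, the other being Nr4a1, which encodes an orphan nuclear receptor (0.26 ± 0.05, adjusted p = 0.0176). The median of those 23 start regions was 0.05, against -0.00 for all regions, and the Npas4 start region's 0.14 did not pass. The Fosb call was lost without KO novelty replicate 1 or 2, WT novelty replicate 2, or WT standard replicate 1 or 2 (edgeR adjusted p from 0.0856 to 0.217). Nr4a1 lost its call without any of these libraries and also without KO standard replicate 1 (0.0637 to 0.217).

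In ifKO 2 of the 33 were called, Npas4 as the higher one and Atf3, a stress-induced factor, as the lower one (-0.25 ± 0.08, edgeR adjusted p = 0.0476). That share is near the 5.38% of all regions called in ifKO. Atf3 lost its call with library totals, DESeq2, the cohort alone or the replicate block, and without any one of the ifKO or ifWT libraries. Of the 32 genes other than Npas4, 4 were called in KO after novelty and 1 under standard conditions, where 17% and 13.4% of all regions were called. The higher ones were Dusp5, which encodes a phosphatase of ERK (0.20 ± 0.06 after novelty and 0.35 ± 0.06 under standard conditions), and after novelty Arc, a regulator of glutamate receptor traffic (0.17 ± 0.05). Jund (-0.17 ± 0.05) and Sik1 (-0.20 ± 0.07) were lower after novelty. Both lost their calls with library totals and with scaling fitted to region strength. With DESeq2, Dusp5, Arc and Sik1 lost their calls after novelty. Arc also lost its call with RLE scaling, and Sik1 with the replicate block. Dusp5 kept its call under standard conditions in all 11 other settings and left-out libraries. After novelty all 4 calls were lost without WT novelty replicate 2 or KO novelty replicate 2, those of Arc, Jund and Sik1 without KO novelty replicate 1, and those of Dusp5, Arc and Sik1 without WT novelty replicate 1. Over these settings the count was 0 to 5 after novelty and 1 to 6 under standard conditions. The median of the 33 was 0.01 in both conditions in KO and -0.04 in ifKO.

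Other regions followed the Npas4 regions over the 12 libraries. Among 14566 gene-end regions with a mean of at least 1 on the log2 CPM scale, the Npas4 start region was most like those at 4930557F10Rik (shared with 4930586N03Rik; r = 0.95), Dynll1 (0.95), Nfasc (0.95), Cacng8 (0.93) and Ifitm7 (shared with Bmerb1; 0.93). The upstream region, added to this search after its values were seen, was most like those at Acta1 (0.97), Gm46072 (0.96), 6330420H09Rik (0.96), Gm31317 (0.96) and Gm41635 (0.96). Acta1, the skeletal muscle actin gene, averaged 42.4 CPM in KO against 18.4 CPM in WT after novelty, 39.8 CPM in KO against 18.3 CPM in WT under standard conditions, and 42.9 CPM in ifKO against 20.8 CPM in ifWT. These correlations describe libraries that share genotype, cohort and depth.

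Summed levels of the cell type markers were set beside the genotypes without a test. The 4 oligodendrocyte lineage markers, none at 0, summed to 154.2 to 154.3 CPM in KO, against 162.0 to 162.6 CPM in WT after novelty. They summed to 149.4 to 158.5 CPM in KO, against 162.7 to 171.8 CPM in WT under standard conditions, and to 153.9 to 162.4 CPM in ifKO and 168.3 to 180.5 CPM in ifWT, so the mutant sums were lower without overlap in each pair. The 4 interneuron markers summed to 51.5 to 55.1 CPM in KO, against 61.1 to 68.5 CPM in WT after novelty, and to 53.6 to 54.5 CPM in KO, against 59.1 to 67.3 CPM in WT under standard conditions. Their sums in ifKO, 67.5 to 69.0 CPM, lay inside the ifWT range of 61.0 to 71.5 CPM. The hippocampal neuron markers were lower without overlap in KO under standard conditions (359.6 to 370.1 CPM in KO, 377.0 to 390.5 CPM in WT), as were the 3 endothelial ones (76.7 to 88.9 CPM in KO, 93.9 to 99.9 CPM in WT), and both overlapped in the other pairs. The 2 astrocyte markers with a region (Aqp4 has none) were lower in KO after novelty (69.9 CPM in both KO libraries, 72.4 to 72.6 CPM in WT) and overlapped otherwise, and the 3 microglial ones overlapped in every pair. For a single region, mutant libraries lay wholly below control libraries in 28.2% of cases in KO after novelty, 27.8% in KO under standard conditions and 22.3% in ifKO. The part of these levels in the difference at the upstream region of Npas4 was not tested.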

How the data were processed

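The deposited H3K4me3 files hold raw read counts per region, 1 column per library, per the file headers, with the same 36005 regions in every file. Of these, 9 repeated another and were removed. For H3K4me1 and Kdm5C a signal of unclear scale was deposited, and only the positions of its regions were used. Per the submitters' processing notes, the authors used MACS2 2.1.0, Bowtie2 2.2.9, DESeq2 1.10.0 in R 3.3, and SAMtools 1.3.1, with the mm10 build. The notes also name featureCounts, a read counter, without a version. The sources used here do not say how regions were defined or with which settings reads were counted. No input libraries were used here.

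All 12 libraries entered 1 fit with 1 mean per group in edgeR 4.0.16 (R 4.3.3), with TMM scaling, filterByExpr (41 regions removed, 35955 kept), the quasi-likelihood F test and Benjamini-Hochberg adjustment over all regions. A region is called, or said to rise or fall, at an adjusted p under 0.05. SEs come from the F statistic, and CPM values use TMM-scaled totals. The spread between libraries is that between pools of mice. With 2 libraries a group, an exact permutation test of 1 region cannot reach the threshold. Poisson intervals and count floors take in counting error alone and leave out the spread between pools. PCR copies were not marked by molecular identifiers, so the intervals may understate the counting error too. Fits were tested on simulated counts before use. Alternatives were RLE scaling, library totals, offsets fitted to region strength (loess), no filter, DESeq2 1.42.0, each cohort alone, a replicate block, and each library left out.

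Named were the Npas4 regions, the genes of regions within 50 kb, list members called in any comparison, all partner and target genes, and the 5 genes most like Npas4. The members and lists were chosen with earlier results of these data known. A gene in a list was represented by its strongest region within 2 kb of either gene end. The version with annotated starts, and the neighbours' and upstream region's alternatives, were added after the data were seen. Sequences and gene positions are RefSeq's for GRCm38.p6. No genome sequence was used here, so that of the upstream region is not shown.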

Additional observations from a re-analysis of the deposited data

Results flagged for a closer look

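The Mrpl11 region, chr19:4961915-4963171, at a gene for a mitochondrial ribosomal protein and the nearest region downstream of Npas4, had differences of opposite sign in the 2 cohorts, and neither passed the test. Its log2 difference was -0.131 in KO against WT under standard conditions, where both KO libraries lay below both WT libraries, as in 27.8% of all regions (edgeR adjusted p = 0.282). It was 0.115 in ifKO against ifWT, where both ifKO libraries lay above both ifWT libraries, as in 21.8% of all regions (adjusted p = 0.473). The difference between the cohorts was not tested, and their genetic backgrounds differ.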

How the results depend on the processing

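Of the values given for the upstream region, the log2 difference in KO was 0.50 under standard conditions and 0.75 after novelty with offsets fitted to region strength, and the ifKO difference was 0.58 (edgeR adjusted p = 0.0546) with them. The ifKO call held with DESeq2 (adjusted p = 0.0423), the ifKO cohort alone (0.0443), library totals (0.0215) and RLE factors (0.0217). The start region's ifKO difference of -0.00 was 0.0053 with library totals, 0.02 with those offsets and 0.014 with the cohort alone. The count of regions called for novelty in WT was 6 with those offsets, 1 with DESeq2, 47 with the cohort alone and 4 with the replicate block. In KO it was 1 with library totals, with those offsets and with DESeq2, and 5 with the cohort alone. Averaged over genotypes it was 41 with those offsets and 102 with the cohort alone. The causes were not tested.

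With each library left out, the start region's difference ran from -0.079 to 0.073 in ifKO, from -0.13 to 0.04 in KO after novelty, from -0.17 to -0.01 in KO under standard conditions, and from -0.042 to 0.13 for the interaction. For the upstream region it ran from 0.50 to 0.87 in ifKO (edgeR adjusted p from 0.0098 to 0.334), 0.77 to 1.02 in KO after novelty, 0.58 to 0.71 in KO under standard conditions, -0.14 to 0.0083 for novelty in WT and -0.0013 to 0.12 for novelty over genotypes. Regions called ran from 935 to 2572 in ifKO (1936 with all libraries), 2239 to 4846 in KO after novelty (6118), 1984 to 3515 in KO under standard conditions (4821), 0 to 3 for novelty in WT, 0 to 4 in KO, 2 to 74 over genotypes and 0 to 1 for the interaction. The count moved by over 1.5 times without ifKO replicate 1 (935), ifWT replicate 1 (1059), KO novelty replicate 1 (2933) or 2 (3321), WT novelty replicate 2 (2239), KO standard replicate 1 (2545), or WT standard replicate 1 (2532) or 2 (1984).

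The share of higher calls depends on scaling. In KO there were 3981 higher and 2137 lower after novelty and 3501 and 1320 under standard conditions. With library totals these were 4430 and 969, and 3908 and 442. With RLE factors 3820 and 2954 were called after novelty, and with DESeq2 2677 and 2263. The ifKO cohort alone gave 1347 higher and 93 lower, against 1585 and 351. Same-numbered libraries deviated together with correlations of -0.06 to 0.10, and the main fit did not pair them. Such correlations cannot exclude shared handling of same-numbered libraries. With the replicate block the upstream ifKO difference was 0.68 (edgeR adjusted p = 0.0207), and 1817, 5799 and 4568 regions were called in ifKO, KO after novelty and KO under standard conditions. A window of 2 kb found the same 2 Npas4 regions.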

Other observations

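Which Npas4 region stands for the gene depends on how regions are assigned. By the strongest region within 2 kb of either end of the table's gene span, Npas4 is the upstream region, with log2 differences of 0.64 to 0.89 in the mutants. By the annotated start it is the start region, with differences of -0.09 to -0.00. Of 13032 genes that have a region by both assignments, 1288 (9.88%) are represented by a different region.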
